A study of Homo sapiens with 4 samples.

Results

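The 10 genes described here encode the core of the Nodal and activin pathway in human pluripotent cells, and were taken as a fixed list of names, which was matched to 10 of the 60564 gene identifiers in the count files. They are the ligands NODAL and GDF3, the co-receptor TDGF1 (CRIPTO), the receptors ACVR1B and ACVR2B, the secreted antagonists LEFTY1 and LEFTY2, the signal transducers SMAD2 and SMAD3 and their nuclear partner FOXH1. RNA was sequenced from Elf1, a naïve human embryonic stem cell (ESC) line. The cells were either grown adherent on coated plates (2-D) or encapsulated as single cells in self-assembling polyethylene glycol scaffolds, PEG-8-SH/PEG-8-Acr, and kept there for 21 days (3-D). The study's methods name plates coated with mouse feeders and with Matrigel, without saying which held the sequenced 2-D cells. Both conditions used the same ESC expansion medium, which by the study's methods held FGF2, LIF and inhibitors of GSK3 and MEK, and the cells came off mouse feeder layers onto Matrigel before encapsulation. Each condition had 2 libraries from independent biological replicates, all from 1 line, with 33833778 and 30114220 gene-assigned reads in 2-D and 21154409 and 18276147 in 3-D. The question was whether culture in the scaffold changed the expression of these genes.

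Nodal and the activins are ligands of the TGF-β family that bind a pair of type I and type II receptor kinases, and Nodal and GDF3 also need the co-receptor TDGF1 at the cell surface. The activated type I receptor phosphorylates SMAD2 and SMAD3, which join SMAD4, enter the nucleus and act with DNA-binding partners such as FOXH1. In human ESCs the pathway is known for sustaining NANOG, and at higher activity for mesoderm and endoderm formation, and because NODAL, LEFTY1 and LEFTY2 are themselves targets, it runs with both positive and negative feedback.

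Of these 10 genes, 2 were lower in 3-D grown cells. LEFTY1 fell to 0.757 times its 2-D level and ACVR2B to 0.913 times, whereas the other 8 genes, NODAL among them, did not pass the test and had log2 fold changes between −0.041 and 0.098. All 10 genes passed the filter on low counts. edgeR's quasi-likelihood test, adjusted over all 22555 tested genes, thus called 2 of the 10 at an adjusted p below 0.05, where it called 7.90% of all tested genes. Of the 10, 0 were called higher in 3-D grown cells, a direction that held for 4.54% of all tested genes, and 2 were called lower, which held for 3.36% of them. DESeq2 called 1 gene of the 10 higher, TDGF1, and 2 lower, beside 511 and 284 of the 10299 genes it gave an adjusted p. Before adjustment edgeR gave 3 of the 10, LEFTY1, ACVR2B and TDGF1, a p below 0.05, which 21.3% of all tested genes had. The median log2 fold change over the 10 was −0.015, beside −1.4e-04 over all tested genes, and the median absolute value was 0.038, beside 0.13. The 2 conditions did not overlap in 6 of the 10 genes, and in 50.5% of all tested genes. In these bulk samples, fewer cells of a type and less RNA per cell cannot be told apart. Values per library below are TMM-normalized CPM, read counts scaled to a common library size, an error after ± is an SD over 2 libraries, and a standard error (SE) belongs to a fitted log2 fold change, given as 3-D over 2-D.

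**Figure D1:**
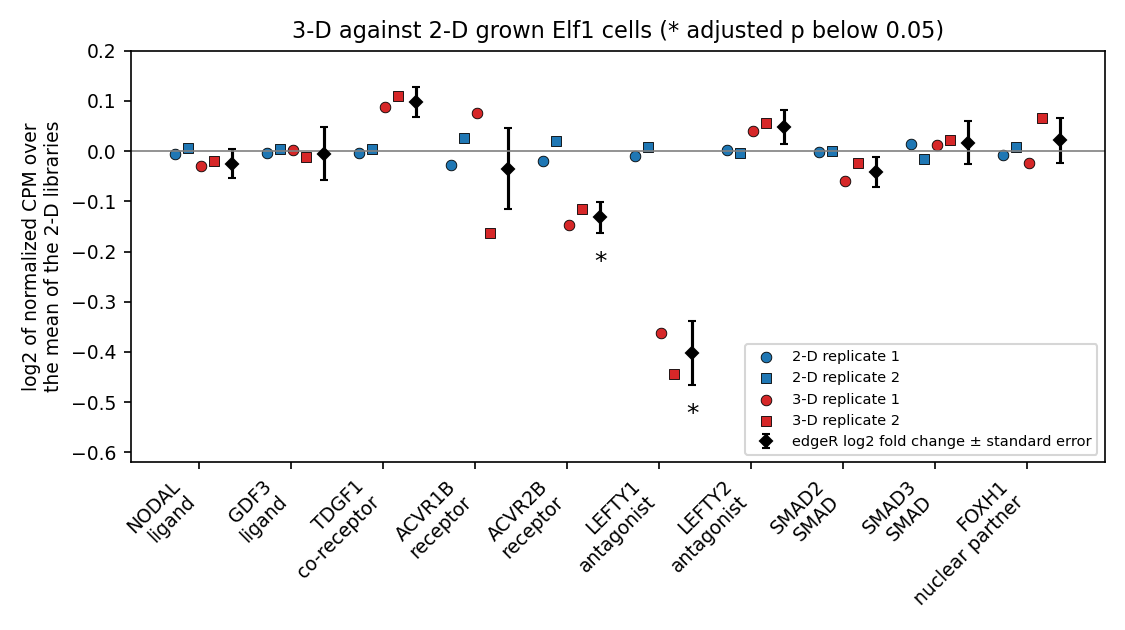
Each circle (replicate 1) or square (replicate 2) is the log2 of a gene's normalized CPM in a library over the mean of the 2-D libraries, in blue for 2-D and red for 3-D, and the black diamond is the fitted log2 fold change with its standard error. LEFTY1 at −0.40 and ACVR2B at −0.13 carry the asterisk of an adjusted p below 0.05, and the 3-D libraries of ACVR1B lie on either side of the 2-D ones.

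Of the ligands, NODAL (chromosome 10, 70431936 to 70447951, hg38) is the one that gives the pathway its name. It had 239.9 and 242 CPM for 2-D against 236 and 237 CPM for 3-D. Both 3-D libraries lay just under both 2-D libraries, and the log2 fold change was −0.025 (SE 0.029, edgeR, Benjamini-Hochberg adjusted p = 0.707). An unnamed gene on the opposite strand, ENSG00000280401, shares 33.5% of the exon bases of NODAL and had a log2 fold change of 0.028 (SE 0.037, adjusted p = 0.737). GDF3 (chromosome 12, 7689784 to 7695775), a ligand of the same receptors that is abundant in pluripotent cells, had 40.3 and 40.56 CPM in 2-D and 40.5 and 40.1 CPM in 3-D grown cells. Its libraries overlapped between conditions, with a log2 fold change of −0.0048 (SE 0.052, adjusted p = 0.974).

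TDGF1 (chromosome 3, 46574534 to 46582457), which anchors Nodal and GDF3 to the receptor complex, was the most abundant of the 10 genes. It had 681 and 685 CPM for 2-D against 726 and 737 CPM for 3-D. Both 3-D libraries were above both 2-D libraries, by a fold of 1.07, and the log2 fold change was 0.098 (SE 0.029, edgeR quasi-likelihood test, unadjusted p = 0.00568, adjusted p = 0.0631). The gene passed the threshold with DESeq2 (adjusted p = 0.0401) and without a filter on low counts (adjusted p = 0.00631), but not with library size as the only scaling (log2 fold change 0.034, adjusted p = 0.561). Without 3-D replicate 1 the adjusted p was 0.00207, and without 3-D replicate 2 it was 0.0121, but without 2-D replicate 1 it was 0.390 and without 2-D replicate 2 it was 0.329.

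TDGF1 has a near-identical processed copy on the X chromosome, TDGF1P3, and the counting could have split reads between them. The transcript of TDGF1 aligned over 100% of its length there, at 98.11% identity, and the coding sequences differ at 7 positions. The longest coding exon of TDGF1 (chr3:46579232-46579366, hg38, plus strand) and the matching stretch of TDGF1P3 (chrX:110521218-110521352, plus strand) are shown to let a reader see how alike the genes are over about 1 read, and capitals mark the 3 of 135 bases that differ.
TDGF1: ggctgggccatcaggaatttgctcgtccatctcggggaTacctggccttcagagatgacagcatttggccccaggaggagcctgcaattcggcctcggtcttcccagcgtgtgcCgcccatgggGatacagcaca
TDGF1P3: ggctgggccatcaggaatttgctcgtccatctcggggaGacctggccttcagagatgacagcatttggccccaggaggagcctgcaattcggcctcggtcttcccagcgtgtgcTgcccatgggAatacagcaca
Over the whole transcript, 181 of the 1807 windows of 150 bases in TDGF1, the length of 1 read, occur unchanged in TDGF1P3. TDGF1P3 was called in the direction opposite to that of TDGF1, with 34.5 and 34.3 CPM in 2-D and 26.7 and 29.6 CPM in 3-D grown cells (log2 fold change −0.29, SE 0.067, adjusted p = 0.0191). Of the reads counted on either gene, TDGF1P3 took 4.82% and 4.77% for 2-D against 3.54% and 3.86% for 3-D. With the counts of both genes summed, an alternative chosen after seeing the data, the log2 fold change was 0.082 (SE 0.030, adjusted p = 0.124). LRRC2, a gene on the other strand that shares 4.42% of the exon bases of TDGF1, rose from 87.1 and 85.1 CPM to 106 and 119 CPM (log2 fold change 0.39, SE 0.046, adjusted p = 3.08e-04). The strand setting of the counting is not given in the sources used here, and reads of the 2 genes in the shared bases could not be told apart without it.

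Of the receptors, ACVR2B (chromosome 3, 38453890 to 38493142), a type II receptor kinase that binds activins and Nodal, was lower in 3-D grown cells. It had 284 and 291 CPM for 2-D against 259 and 265 CPM for 3-D. Both 3-D libraries lay below both 2-D libraries, and the log2 fold change was −0.13 (SE 0.031, edgeR, Benjamini-Hochberg adjusted p = 0.0210). The direction held in each of the 11 other settings, with log2 fold changes from −0.20 to −0.11, but the call was lost without 2-D replicate 1 (adjusted p = 0.0735) and without 2-D replicate 2 (adjusted p = 0.306), where a single 2-D library remained. ACVR1B (ALK4, chromosome 12, 51951699 to 51997078), the type I kinase of the pair, had 24.8 and 25.7 CPM in 2-D and 26.6 and 22.5 CPM in 3-D grown cells. The 3-D libraries were the highest and the lowest of all 4, and the log2 fold change of −0.035 (SE 0.081, adjusted p = 0.864) became 0.079 without 3-D replicate 2.

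The antagonists showed the largest change of the 10 genes and differed between the paralogs. LEFTY1 (chromosome 1, 225886282 to 225911382) and LEFTY2 (chromosome 1, 225936598 to 225941383), neighbours on the minus strand, encode secreted inhibitors that keep Nodal from its receptor complex. LEFTY1 had 33.4 and 33.8 CPM for 2-D against 26.2 and 24.7 CPM for 3-D, that is, 33.6 ± 0.300 against 25.4 ± 1.04. Both 3-D libraries lay well below both 2-D libraries, and the log2 fold change was −0.40 (SE 0.064, edgeR, Benjamini-Hochberg adjusted p = 0.00217). It passed the threshold in each of the 11 other settings, with log2 fold changes from −0.47 to −0.36 and adjusted p-values from 4.22e-07 to 0.00478. LEFTY2 had 80.8 and 80.4 CPM in 2-D and 82.9 and 83.7 CPM in 3-D grown cells. Its log2 fold change was 0.048 (SE 0.034, adjusted p = 0.47) and turned to −0.016 when libraries were scaled by size alone.

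Within each library, and so with no part for library scaling, LEFTY1 had 0.5003 and 0.509 times the level of LEFTY2 per kb of merged exons for 2-D, against 0.382 and 0.357 times for 3-D. The log2 ratio was −0.99 ± 0.017 in 2-D and −1.44 ± 0.069 in 3-D grown cells, a difference of −0.45, and the conditions did not overlap. No test was run on this ratio, for which an exact permutation test of 2 against 2 libraries could not give a two-sided p under 0.333.

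The LEFTY genes are 97.18% identical in their coding sequence, with 31 differences over 1098 bases, so the counting could have split reads between them. Of the 150-base windows of the LEFTY1 transcript, 10.2% occur unchanged in LEFTY2, and 8.07% of those of LEFTY2 occur in LEFTY1. With the counts of the pair summed, an alternative chosen after seeing the data, the log2 fold change was −0.070 (SE 0.030, adjusted p = 0.194), since LEFTY2 holds most of the reads.

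**Figure D2:**
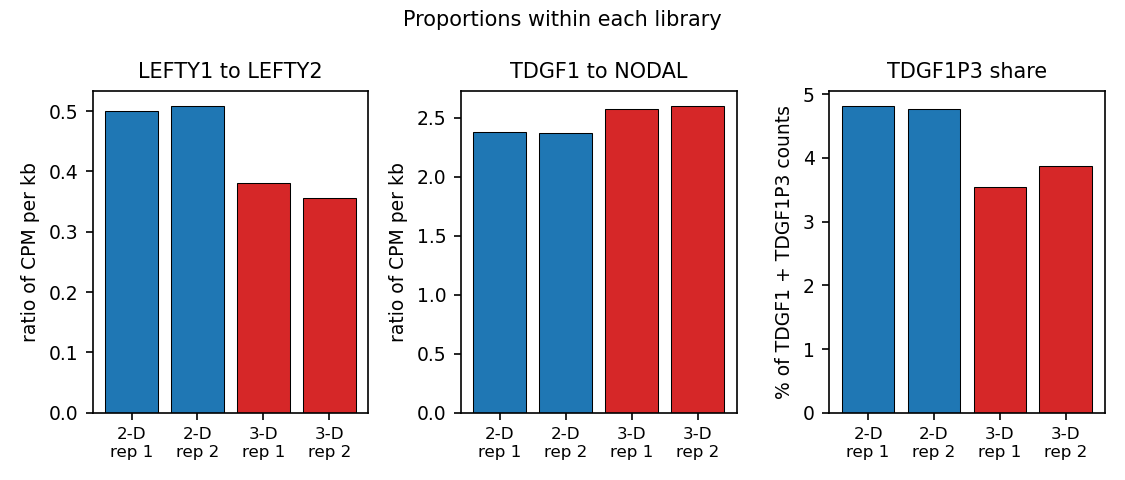
Bars give 1 library each, blue for 2-D and red for 3-D, for the ratio of LEFTY1 to LEFTY2 and of TDGF1 to NODAL (both in CPM per kb of merged exons) and for the percent of TDGF1 plus TDGF1P3 counts assigned to TDGF1P3. The ratio of LEFTY1 to LEFTY2 is near 0.5 in 2-D and 0.382 and 0.357 in 3-D, that of TDGF1 to NODAL is 2.38 and 2.37 in 2-D and 2.58 and 2.60 in 3-D, and the share of TDGF1P3 is lower in both 3-D libraries.

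Neither receptor-regulated SMAD passed the test. SMAD2 (chromosome 18, 47808957 to 47931146) had 177 and 177 CPM in 2-D and 169.8 and 174 CPM in 3-D grown cells, with a log2 fold change of −0.041 (SE 0.030, edgeR, Benjamini-Hochberg adjusted p = 0.487). With library size as the only scaling that value was −0.11 (adjusted p = 0.05001). SMAD3 (chromosome 15, 67063763 to 67195173) had 53.6 and 52.5 CPM in 2-D and 53.5 and 53.8 CPM in 3-D grown cells, and a log2 fold change of 0.017 (SE 0.043, adjusted p = 0.878). FOXH1 (chromosome 8, 144473412 to 144475849), the forkhead factor that carries SMAD complexes to DNA, had 53.8 and 54.5 CPM in 2-D and 53.3 and 56.7 CPM in 3-D grown cells. The libraries of SMAD3 and of FOXH1 overlapped between conditions, and the log2 fold change of FOXH1 was 0.021 (SE 0.045, adjusted p = 0.85). KIFC2, on the other strand, shares 39.2% of the exon bases of FOXH1, and had a log2 fold change of −0.13 (SE 0.069, adjusted p = 0.312).

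Per kb of merged exons, the scale on which genes can be compared, the 10 genes spanned a wide range, and their order was the same in both conditions. In 2-D grown cells TDGF1 had 274 ± 1.06 CPM per kb, NODAL 115 ± 0.651, LEFTY2 35.3 ± 0.105, GDF3 32.7 ± 0.149 and FOXH1 26.9 ± 0.228. ACVR2B followed with 18.3 ± 0.357, LEFTY1 with 17.8 ± 0.159, SMAD3 with 5.30 ± 0.0777, SMAD2 with 4.86 ± 0.0047 and ACVR1B with 4.46 ± 0.117 CPM per kb. In 3-D grown cells TDGF1 had 294 ± 3.13, NODAL 114 ± 0.471 and LEFTY1 13.5 ± 0.548 CPM per kb. There SMAD2 with 4.72 ± 0.0842 and ACVR1B with 4.34 ± 0.51 did not differ from each other beyond the spread of ACVR1B. The extracellular genes thus stood above the receptors and SMADs, apart from LEFTY1, which was just under ACVR2B in 2-D and further under it in 3-D grown cells. Levels of genes with long annotated exons are uncertain, since the counts do not show which exons the reads came from. The merged exons of SMAD2 hold 36426 bases and those of ACVR2B 15705, against 1236 for GDF3. With the length of the longest transcript, SMAD3 moved most, from 5.30 to 8.20 CPM per kb in 2-D grown cells, SMAD2 at 5.11 came after ACVR1B at 5.57, and the order of the others was unchanged.

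**Figure D3:**
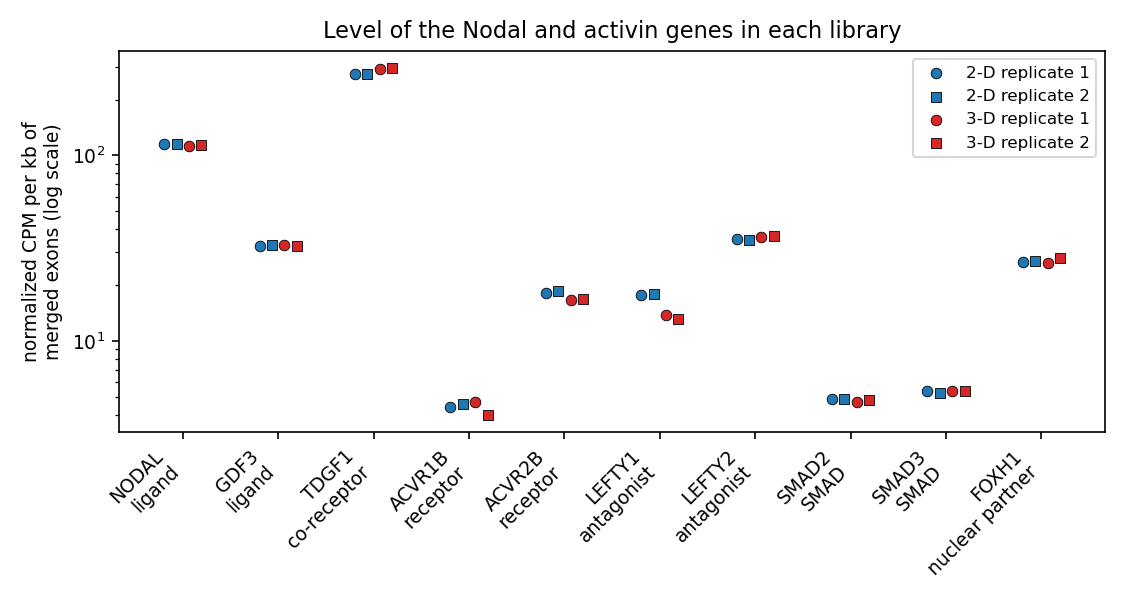
Normalized CPM per kb of merged exons (log axis) for each of the 10 genes, with 1 point per library, blue for 2-D, red for 3-D, circles for replicate 1 and squares for replicate 2. TDGF1 and NODAL lie highest, ACVR1B, SMAD2 and SMAD3 lowest, and LEFTY1 shows the widest gap between the blue and red points.

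The pairs of members that work together were also set side by side within each library. The ratio of TDGF1 to NODAL per kb was 2.38 and 2.37 in 2-D and 2.58 and 2.60 in 3-D grown cells, a difference of 0.12 on the log2 scale. GDF3 had 0.284 and 0.283 times the level of NODAL in 2-D and 0.289 and 0.285 times in 3-D grown cells. SMAD2 had 0.907 and 0.927 times the level of SMAD3 in 2-D and 0.873 and 0.889 times in 3-D grown cells, or 0.616 and 0.630 against 0.593 and 0.604 times with the length of the longest transcript. For these 3 pairs the conditions did not overlap, though the shift was small for the last 2. Taken singly, 50.5% of all tested genes did not overlap either. No test was run on these ratios, since 2 against 2 libraries allow no exact two-sided permutation p under 0.333. ACVR1B had 0.242 and 0.245 times the level of ACVR2B in 2-D and 0.285 and 0.236 times in 3-D grown cells, where the libraries lay on either side.

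Of 54 other genes of the pathway, 49 passed the filter on low counts, and in 3-D grown cells edgeR called 6 of them higher and 4 lower, beside 4.54% and 3.36% of all tested genes, with a median log2 fold change of 0.011. CREBBP, FURIN and PCSK7 were called in each of the 11 other settings. With library size as the only scaling, 3 were called higher and 7 lower, and DESeq2 called 1 lower. Other ligands were scarce, with INHBE, an activin subunit gene, highest at 6.46 ± 0.182 CPM for 2-D and 5.93 ± 0.131 for 3-D, INHBA, the subunit of activin A, at 1.71 ± 0.156 and 2.31 ± 0.0342, and INHBC at 0.313 ± 0.155 and 0.442 ± 0.0059. None of these 3 passed the test (edgeR, adjusted p = 0.628, 0.243 and 0.637). GDF1, which had no counts, INHBB, with at most 5 counts in a library, and the co-receptor genes CFC1 and CFC1B, with at most 1, were left out by the filter.

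Among the other receptors, TGFBR1 (ALK5), the type I receptor for TGF-β that also phosphorylates SMAD2 and SMAD3, fell from 125 and 122 CPM to 113 and 107 CPM (log2 fold change −0.17, SE 0.033, edgeR adjusted p = 0.00728). ACVR1C (ALK7) had a log2 fold change of −0.32 (SE 0.20, adjusted p = 0.417), and TGFBR2 0.011 (SE 0.097, adjusted p = 0.967). SMAD4, the partner that SMAD2 and SMAD3 share, fell from 104 and 103 CPM to 93.1 and 95.9 CPM (log2 fold change −0.14, SE 0.032, adjusted p = 0.0214). The inhibitory SMAD6 and SMAD7 had log2 fold changes of −0.28 (SE 0.079, adjusted p = 0.0502) and −0.083 (SE 0.038, adjusted p = 0.229). All 3 of these SMADs had both 3-D libraries below both 2-D libraries, and in 50.5% of all tested genes the conditions did not overlap. The call of TGFBR1 was lost without 2-D replicate 1 (adjusted p = 0.0615), and that of SMAD4 with DESeq2 (adjusted p = 0.194), without 2-D replicate 1 (0.183) and without 2-D replicate 2 (0.158).

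Both FURIN and PCSK7, proprotein convertases of the group that cleaves TGF-β family precursors, rose. FURIN went from 53.2 and 54.4 CPM to 62.3 and 65.4 CPM (log2 fold change 0.25, SE 0.042, edgeR adjusted p = 0.00352), and PCSK7 from 137 and 142 CPM to 158 and 166 CPM (log2 fold change 0.22, SE 0.034, adjusted p = 0.00205). PCSK5 had a log2 fold change of 0.022 (SE 0.13, adjusted p = 0.95). Among antagonists outside the 10 genes, TMEFF1, a membrane protein known to block Nodal through TDGF1, fell from 2.18 and 1.69 CPM to 0.584 and 0.502 CPM (log2 fold change −1.82, SE 0.30, adjusted p = 0.00287), on 75 and 52 counts against 12 and 9. A read-through gene that holds TMEFF1 is also annotated, so this value rests on few reads that the counting could split. DESeq2 gave TMEFF1 no adjusted p, and the filter of at least 10 counts in every library left it out. NOMO1 rose from 8.54 and 9.77 CPM to 11.3 and 14.1 CPM (log2 fold change 0.47, SE 0.12, adjusted p = 0.0300), but it has near-identical paralogs and its counts are uncertain, and the call was lost without 2-D replicate 1 (adjusted p = 0.0987), without 3-D replicate 2 (0.0906), with DESeq2 (0.107) and with scaling by library size alone (0.0513). The activin-binding follistatin gene FST had 162 CPM in 2-D and 169 CPM in 3-D grown cells and CER1, a secreted Nodal inhibitor, 13.3 and 13.9 CPM, and neither passed the test (adjusted p = 0.376 and 0.751).

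Of the nuclear partners, the histone acetyltransferases CREBBP and EP300, which SMAD complexes recruit among many other factors, rose. CREBBP went from 189 and 181 CPM to 227 and 227 CPM (log2 fold change 0.29, SE 0.031, edgeR adjusted p = 1.71e-04), and EP300 from 333 and 340.4 CPM to 372 and 369 CPM (log2 fold change 0.14, SE 0.030, adjusted p = 0.0138). The study picked out CREBBP, EP300 and SMAD4 on these same libraries within another pathway, Wnt, so their direction here is not independent evidence. Its quantitative PCR, a separate assay, also reported CREBBP higher and SMAD4 lower in 3-D grown cells. For pluripotency markers that assay and these libraries differed, as given below. Of the intracellular regulators, the SMAD co-repressors moved apart, with SKI higher (116 and 114 CPM to 122 and 128 CPM, log2 fold change 0.12, SE 0.032, adjusted p = 0.0407) and TGIF1 lower (119 and 121 CPM to 104 and 113 CPM, log2 fold change −0.14, SE 0.038, adjusted p = 0.0418). The remaining 14 of the 16 regulators did not pass the test. With DESeq2 the adjusted p of SKI was 0.250 and that of TGIF1 0.179, without 2-D replicate 1 they were 0.119 and 0.0742, and without 2-D replicate 2 they were 0.349 and 0.204. The call of TGIF1 was also lost without 3-D replicate 1 (adjusted p = 0.158), and that of SKI without 3-D replicate 2 (0.0870), with scaling by library size alone (0.361) and with at least 10 counts in every library (0.0536). EP300 was not called without 2-D replicate 1 (adjusted p = 0.214), without 2-D replicate 2 (0.0870) or with scaling by library size alone (0.165).

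**Figure D4:**
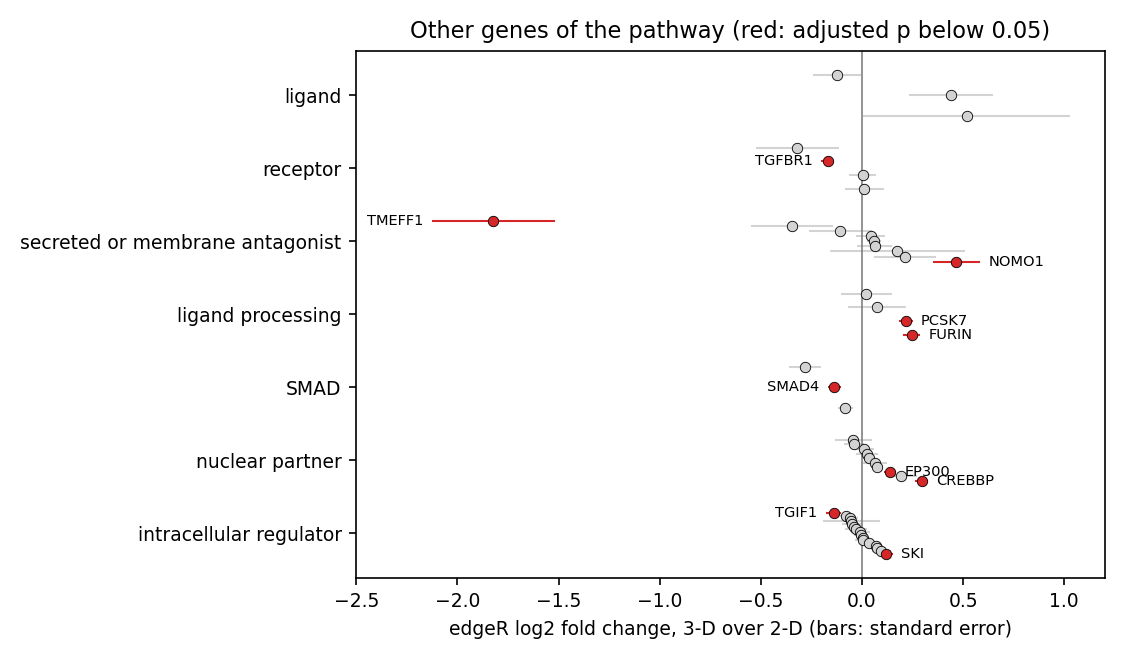
Each point is the fitted log2 fold change, 3-D over 2-D, of 1 of the 49 tested pathway genes outside the 10, with its standard error as a bar, grouped by role and red where the adjusted p is below 0.05. TMEFF1 at −1.82 lies far to the left on few reads, and the other 9 red points lie between −0.17 and 0.47.

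Of 22 genes known to respond to Nodal or activin, some of which are also on the list above, 17 were tested, 1 was called higher and 1 lower, beside 4.54% and 3.36% of all tested genes, and the median log2 fold change was 0.062. DNMT3B, a DNA methyltransferase of pluripotent cells, rose from 1050.0 and 1052 CPM to 1164 and 1203 CPM (log2 fold change 0.17, SE 0.030, edgeR adjusted p = 0.00429), and TGIF1 was the one that fell, with the settings that end its call given above. DNMT3B was called in each of the 11 other settings. NANOG, which SMAD2 and SMAD3 activate in human ESCs, had 198 CPM in 2-D and 209.9 CPM in 3-D grown cells (log2 fold change 0.084, SE 0.034, adjusted p = 0.173). Among the mesendoderm targets, 0 of 8 tested genes were called, though 7 had a positive log2 fold change, as did 11272 of all 22555 tested genes. Their median was 0.18, beside −0.016 for the other 9 tested targets. The values ran from −0.042 for EOMES (SE 0.091, edgeR adjusted p = 0.851) to 1.0 for GATA6 (SE 0.28, adjusted p = 0.0516), which had 0.973 CPM for 2-D and 1.92 CPM for 3-D. Before adjustment 3 of the 8 had a p below 0.05, as did 21.3% of all tested genes.

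Markers of cell types were read beside these results. The 7 core pluripotency genes summed to 3546 and 3511 CPM in 2-D and 3558 and 3452 CPM in 3-D grown cells. Of the 10 naïve markers ZFP42 was highest in 2-D grown cells at 163 CPM and DPPA5 lowest at 0.123 CPM, with KLF17 at 0.703 CPM. TFCP2L1, DNMT3L, KLF4 and DPPA3 lay between, at 23.0, 17.0, 9.32 and 6.72 CPM. Of the 9 primed markers CD24 was highest at 896 CPM and FGF5 lowest at 0.029 CPM, with DUSP6 at 2.07 CPM. Both lists thus held abundant and scarce genes, and the naïve label did not show in every marker. The study's quantitative PCR reported OCT4 (POU5F1), NANOG, SOX2, KLF17, KLF4, TFCP2L1, DPPA3 and DNMT3L higher after 21 days in the scaffold. In these libraries edgeR called none of them, with log2 fold changes from −0.072 for DPPA3 to 0.51 for KLF17. The reason for this difference was not tested. KLF5 among the naïve markers (log2 fold change 0.26, edgeR adjusted p = 0.00336) and SFRP2, THY1 and SALL2 among the primed ones (0.28, 0.22 and 0.21, adjusted p = 2.22e-04, 0.00453 and 9.45e-04) were called higher in 3-D grown cells. Endoderm markers summed to 8.13 and 8.08 CPM in 2-D and 9.78 and 9.93 CPM in 3-D grown cells with TTR at 0, and trophoblast and amnion markers to between 4.44 and 5.13 CPM with CGA at 0. The 6 mesoderm markers summed to 203 and 203 CPM in 2-D and 218 and 214 CPM in 3-D grown cells, and the 5 neural ectoderm markers to 583 and 577 CPM against 603 and 601 CPM, nearly all of it from NES. The 9 fibroblast markers summed to 468 and 461 CPM in 2-D and 471 and 516 CPM in 3-D grown cells. COL1A2, the highest, had 321 CPM in 2-D and 313 CPM in 3-D grown cells (log2 fold change −0.037, edgeR adjusted p = 0.649). PDGFRB had a log2 fold change of 0.017 (edgeR adjusted p = 0.961). COL1A1, COL3A1 and POSTN were called higher, and DCN was lowest at 0.17 and 0.104 CPM. POSTN, with a log2 fold change of 0.65, lost its call without 3-D replicate 2, where that value was 0.47. DESeq2 gave POSTN no adjusted p. The part of these shifts in the values of LEFTY1 and ACVR2B was not tested.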

How the data were processed

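RNA was measured in 4 libraries, 2 of 2-D and 2 of 3-D grown Elf1 cells. The authors deposited counts per gene, made from rRNA-depleted paired-end reads with Trim Galore 0.6.3, HISAT2 2.1.0 on hg38 and featureCounts 1.6.4 on GENCODE genes. Their table of DESeq2-scaled counts with fold changes and p-values was not used. Names, positions and lengths came from GENCODE 44 on hg38, a later release than the authors' (60295 identifiers matched).

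The deposited counts went into edgeR 4.0.16 (R 4.3.3), using TMM, its filter on low counts (22555 genes tested), the quasi-likelihood test on condition alone and Benjamini-Hochberg adjustment over all tested genes. DESeq2 1.42.0, 2 other scalings, library sizes that left out histone, mitochondrial and ribosomal protein genes, 2 other filters, a replicate block and each library left out were alternatives. Copies were sought with minimap2 2.31-r1302. The fit was tested on simulated counts.

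The members, the pathway, target and marker lists and the naming rule were chosen with earlier results of these data known. All 10 members were named, with every called gene and the lowest and highest change in each role of the pathway and target lists. Depth limits genes of few counts. The edgeR p-values rest on the spread between only 2 libraries per condition, drawn toward the spread of the other tested genes. Some sequences and genes are not reported here.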

Additional observations from a re-analysis of the deposited data

How the results depend on the processing

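Of the 10 genes, LEFTY1 kept its direction and its call in each of the 11 other settings. Between 0 and 1 of the 10 were called higher and between 1 and 2 lower when 1 library was left out. TDGF1 was the 1 called higher with DESeq2, the replicate block (adjusted p = 0.0451) and no filter on low counts, and the call of ACVR2B was lost without 2-D replicate 1 or 2-D replicate 2. Directions that did not pass the test turned in a few settings. Library size as the only scaling, which lowered the median of all genes by 0.064 on the log2 scale, gave LEFTY2 −0.016, SMAD3 −0.048 and FOXH1 −0.043, and leaving out 3-D replicate 2 gave GDF3 0.0034, ACVR1B 0.079 and FOXH1 −0.022, against −0.011, −0.16 and 0.068 without 3-D replicate 1. Summed with LEFTY1, an alternative chosen after seeing the data, LEFTY2 had −0.070. Of the other pathway genes, library size as the only scaling called 3 higher and 7 lower, DESeq2 called 1 lower, and leaving out 1 library gave 3 to 7 higher and 1 to 5 lower. Of the target genes, 3 were called higher without a filter, 2 with at least 10 counts in every library and 3 with the replicate block, 2 were called lower with library size only and 0, TGIF1 being lost, with DESeq2, and leaving out 1 library gave 1 to 4 higher and 0 to 1 lower. Over all genes, 1024 higher and 758 lower became 514 and 1879 with library size only, 511 and 284 with DESeq2, and 560 to 1468 and 414 to 1175 with 1 library left out. DESeq2 gave an adjusted p to 10299 genes, where edgeR tested 22555, so their counts of calls have unlike totals. The cause of these moves was not tested.

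The deviations of same-numbered libraries from their condition means had a correlation of −0.0074. With 2 libraries per condition the deviations mirror each other, so both replicate numbers give this 1 value. It cannot decide whether the replicate numbers pair the libraries. The replicate block raised the calls over all genes from 1782 to 2167. Depth limits INHBC, GATA6, TMEFF1 and other genes of few counts. Per-kb levels depend on the annotated exon length, most for SMAD3 and ACVR2B.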

Other observations

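At the TDGF1 locus, ENSG00000283877, a gene on the same strand that shares 1.81% of the exon bases of TDGF1, had 202 and 179 counts in 2-D and 71 and 58 counts in 3-D grown cells, with a log2 fold change of −0.80 (SE 0.14, edgeR quasi-likelihood test, adjusted p = 0.00383), while LRRC2 and TDGF1 had positive values. Of the other processed copies of TDGF1, TDGF1P5 had 21, 14, 9 and 6 counts.

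Among genes of like level (within 1.5 times), the patterns nearest to LEFTY1 over the 4 libraries were those of CCNA1 and ATP5PO, with root mean square differences of 0.019 and 0.023 in centred log2 CPM among 3038 candidates. Nearest to ACVR2B were MRS2 and ATP13A3, with 0.0056 and 0.0081 among 710. With 4 libraries many genes lie close to any pattern.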
